A study of Caenorhabditis elegans with 3 samples.

Results

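The early zygotic genes vet-6, tbx-38, tbx-37, tbx-11, pes-10, sdz-28 and pal-1 of the nematode Caenorhabditis elegans were examined in polyA RNA from sterile young adults. They were taken by name from 2 tables of FPKM values (mapped fragments per unit of transcript length and of sequencing depth), and all 7 were listed in both tables, out of 10168 genes listed in either. The members were chosen by their FPKM in the RNAi libraries relative to mock, which were in view when the names were listed. Every difference below is therefore a description, and no test was made.

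The 3 libraries were 1 of animals given dcr-1 RNAi, 1 of animals given drsh-1 RNAi and 1 mock library, each labelled 2.5 days. dcr-1 encodes Dicer, which cuts double-stranded RNA and microRNA precursors, and drsh-1 encodes Drosha, which releases microRNA precursors in the nucleus. All 3 groups shared the fem-1 strain, the young adult stage and delivery of RNAi by feeding, per the labels. fem-1 is required for male development and for sperm, and the labels give the strain as a sterile match for the sterility that loss of dcr-1 causes. The labels do not give the fem-1 allele, the RNAi clone of the mock, the number of animals pooled or whether the animals held embryos.

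Embryos of C. elegans start on RNA and protein laid down by the mother, and their own transcription begins within the first cell divisions, in the somatic cells before the germ line precursor. Maternal factors such as SKN-1, a transcription factor, and POP-1, a TCF protein of the Wnt pathway, then direct which early genes each cell switches on. The members come from several of these early classes. vet-6 belongs to the very early transcripts, pes-10 is a standard marker of the first somatic transcription, and sdz-28 was named as a SKN-1 dependent zygotic gene. tbx-37 and tbx-38 encode redundant T-box transcription factors that act in descendants of the ABa cell, where Notch signalling induces pharyngeal cells. tbx-11 is a further gene of the T-box family. pal-1 encodes a homeodomain protein of the Caudal family that specifies posterior lineages, and unlike a purely zygotic gene its mRNA is also made in the mother, where MEX-3 and GLD-1 hold back its translation.

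With 1 library per group there was no replicate check, no standard deviation and no p-value. The read depth of the libraries is unknown. As a check of the labels, dcr-1 was at 23.8 FPKM in the dcr-1 library against 36.8 FPKM in mock (log2 ratio of FPKM + 1 of -0.61). drsh-1 was at 20.9 FPKM in the drsh-1 library against 31.999 FPKM in the mock column of its table (-0.59). The mock value of drsh-1 differed in the dcr-1 table, at 26.2 FPKM. Each target was thus the lower in its own knockdown, by less than 2-fold. Of 58 sperm genes 49 were in neither table, among them spe-9, fer-1, gsp-3 and gsp-4. Oocyte and eggshell genes were listed for 29 of 30. Their summed level over 27 genes with equal mock values was 11400 FPKM in dcr-1 RNAi, 10977 FPKM in drsh-1 RNAi and 9916 FPKM in mock.

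Among the 7 genes, drsh-1 RNAi gave the highest level for 6, and dcr-1 RNAi was close to or below mock for most. The very early transcript vet-6 was at 8.61 FPKM in dcr-1 RNAi, 24.96 FPKM in drsh-1 RNAi and 4.60 FPKM in mock. Its log2 ratio to mock, on the scale of FPKM + 1 used throughout, was 0.78 with dcr-1 RNAi and 2.21 with drsh-1 RNAi. Both RNAi libraries were thus above mock for this gene, and the drsh-1 library was 2.90-fold above the dcr-1 library in FPKM. pes-10 had the same order of libraries, with 5.07 FPKM in dcr-1 RNAi, 14.3 FPKM in drsh-1 RNAi and 2.96 FPKM in mock. Its log2 ratios were 0.62 with dcr-1 RNAi and 1.95 with drsh-1 RNAi, and the FPKM was 4.84-fold higher in drsh-1 RNAi than in mock.

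The T-box pair was near the lowest listed level in 2 of the 3 libraries and clearly above it in drsh-1 RNAi. tbx-38 was at 2.84 FPKM in dcr-1 RNAi, 14.4 FPKM in drsh-1 RNAi and 2.38 FPKM in mock. tbx-37 was at 2.52 FPKM in dcr-1 RNAi, 8.05 FPKM in drsh-1 RNAi and 2.46 FPKM in mock. In drsh-1 RNAi the log2 ratio to mock was 2.19 for tbx-38 and 1.39 for tbx-37. In dcr-1 RNAi it was 0.19 for tbx-38 and 0.03 for tbx-37, but tbx-38 was below 0 when the libraries were scaled to the same summed FPKM (-0.025) and tbx-37 under each of the 3 scalings tried (-0.18 to -0.021). The 2 genes are close paralogs that can share reads, so their summed level was also taken. The sum was 5.36 FPKM in dcr-1 RNAi, 22.5 FPKM in drsh-1 RNAi and 4.84 FPKM in mock, with log2 ratios to mock of 0.12 for dcr-1 RNAi and 2.01 for drsh-1 RNAi. tbx-38 stood at 1.13 times tbx-37 in dcr-1 RNAi, 1.79 times in drsh-1 RNAi and 0.967 times in mock. In the WBcel235 annotation tbx-38 overlaps the receptor gene srd-74 and the noncoding RNA C24H11.10 on the other strand, and whether strand was used in counting is not given in the sources used here. srd-74 was in neither table.

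sdz-28 and tbx-11 differed from the genes above in that dcr-1 RNAi was below mock. sdz-28 was at 13.9 FPKM in dcr-1 RNAi, 47.3 FPKM in drsh-1 RNAi and 20.5 FPKM in mock, with log2 ratios of -0.53 under dcr-1 RNAi and 1.17 under drsh-1 RNAi. It was the highest of the 7 in drsh-1 RNAi. tbx-11 was at 7.04 FPKM in dcr-1 RNAi, 18.3 FPKM in drsh-1 RNAi and 15.8 FPKM in mock. For tbx-11 the drsh-1 library was near mock (0.20) and the dcr-1 library 2.24-fold lower than mock in FPKM (-1.06), so that its separation between the RNAi libraries came mainly from the low value in dcr-1 RNAi.

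**Figure D1:**
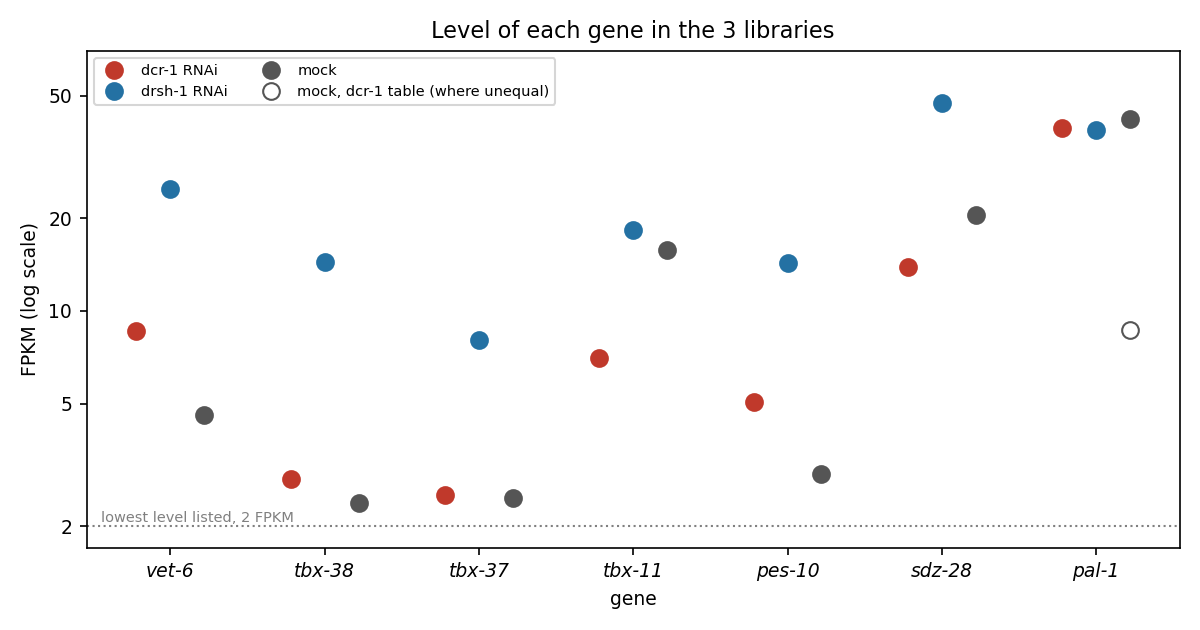
FPKM (log scale) of each of the 7 genes, with 1 point per library for dcr-1 RNAi, drsh-1 RNAi and mock and an open point for a mock value that differs in the dcr-1 table. drsh-1 RNAi is the highest point for vet-6, tbx-38, tbx-37, tbx-11, pes-10 and sdz-28, while for pal-1 the filled points lie close together at 39.2, 38.7 and 41.9 FPKM and the open mock point is at 8.68 FPKM.

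pal-1, the member with a maternal mRNA, was far above mock or near mock in dcr-1 RNAi depending on which deposited mock value was used. It was at 39.2 FPKM in dcr-1 RNAi against 8.68 FPKM in mock in the dcr-1 table, a log2 ratio of 2.05 and the rank of 101 from the highest among 9631 genes. In the drsh-1 table it was at 38.7 FPKM in drsh-1 RNAi against 41.9 FPKM in mock, a log2 ratio of -0.11. Set against the mock value of the drsh-1 table, dcr-1 RNAi had a log2 ratio of -0.095. This ratio takes its 2 values from different tables, and whether such values can be compared is not known. The difference of pal-1 in dcr-1 RNAi was thus seen only with the mock value of the dcr-1 table.

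pal-1 is 1 of 416 shared genes whose mock value is unequal in the 2 tables, and 375 of these have the lower value in the dcr-1 table. Its 4.83-fold gap between the mock values is the 6th widest of the 416 on the side of a lower value in the dcr-1 table. Over the 416 genes, the median log2 ratio of dcr-1 RNAi was 0.14 with the mock values of the dcr-1 table and -0.25 with those of the drsh-1 table. The count at least 2-fold higher was 36 with the first and 19 with the second, and the count at least 2-fold lower was 24 and 58. pal-1 has 5 annotated transcripts in WBcel235 and each of the other 6 genes has 1. The other 6 genes have the same mock value in both tables. pal-1 also overlaps metl-5 and the noncoding RNA C38D4.11 on the other strand, and metl-5 was at 21.1 FPKM in dcr-1 RNAi, 18.9 FPKM in drsh-1 RNAi and 26.5 FPKM in mock.

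**Figure D2:**
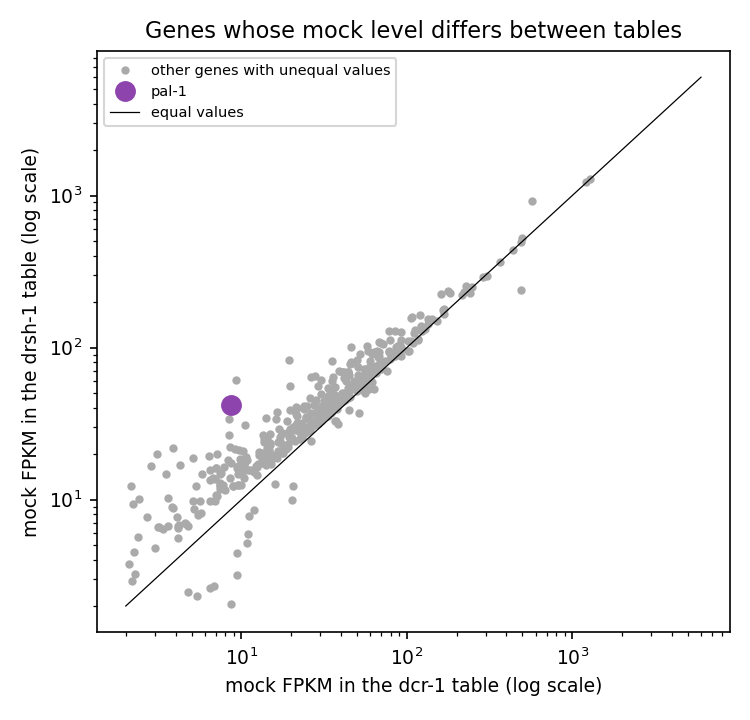
Mock FPKM in the drsh-1 table against mock FPKM in the dcr-1 table (both log scales) for the 416 genes with unequal values, with a line where the values would be equal. Most points lie above the line, and pal-1 lies far above it at 8.68 FPKM in the dcr-1 table and 41.9 FPKM in the drsh-1 table.

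Read against all genes, 5 of the 7 genes were at least 2-fold higher in drsh-1 RNAi than in mock and 0 were lower by that size, where 1.91% of 9996 genes were higher by this size and 1.59% lower. The genes were picked with this contrast in view, so nothing is read from the count. The median log2 ratio of the 7 was 1.39, beside 0.002 for all genes. vet-6 ranked 13, tbx-38 14, pes-10 25, tbx-37 86 and sdz-28 129 from the highest, while tbx-11 ranked 2113 and pal-1 6933.

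In dcr-1 RNAi 1 of the 7 genes (pal-1) was at least 2-fold higher than mock and 1 (tbx-11) at least 2-fold lower, beside 6.71% and 6.53% of 9631 genes. With a pseudocount of 5 FPKM tbx-11 had -0.79 and did not reach 2-fold. The median log2 ratio of the 7 was 0.19, beside 0.06 for all genes. Without pal-1, for which the mock value is in doubt, the count of higher genes was 0 and the median 0.11. Scaling to the same summed FPKM moved the median of all genes by -0.27 and changed the counts over all genes to 350 higher and 1000 lower, against 646 and 629 as deposited. It put the median of the 7 at -0.025, beside -0.21 for all genes under that scaling. The sign of this median thus changed with the scaling.

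The 2 RNAi libraries were set against each other over the 9043 genes with equal mock values, which leaves out pal-1. All 6 remaining genes were at least 2-fold lower in dcr-1 RNAi than in drsh-1 RNAi, beside 5.78% of all genes lower by this size and 4.29% higher. With a pseudocount of 5 FPKM 3 of the 6 reached 2-fold. As deposited, 388 genes were higher and 523 lower, against 249 and 737 with the same summed FPKM, which moved the median of all genes by -0.21. The log2 ratios ran from -2.01 for tbx-38 to -1.26 for tbx-11, with a median of -1.40, beside 0.06 for all genes. This comparison uses the same drsh-1 library as the comparison with mock and is no separate evidence. For all 6 genes the drsh-1 library held the highest of the 3 values, which was so for 24.4% of the 9043 genes. A larger number of cells with these transcripts and more RNA per cell cannot be told apart in whole animals.

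**Figure D3:**
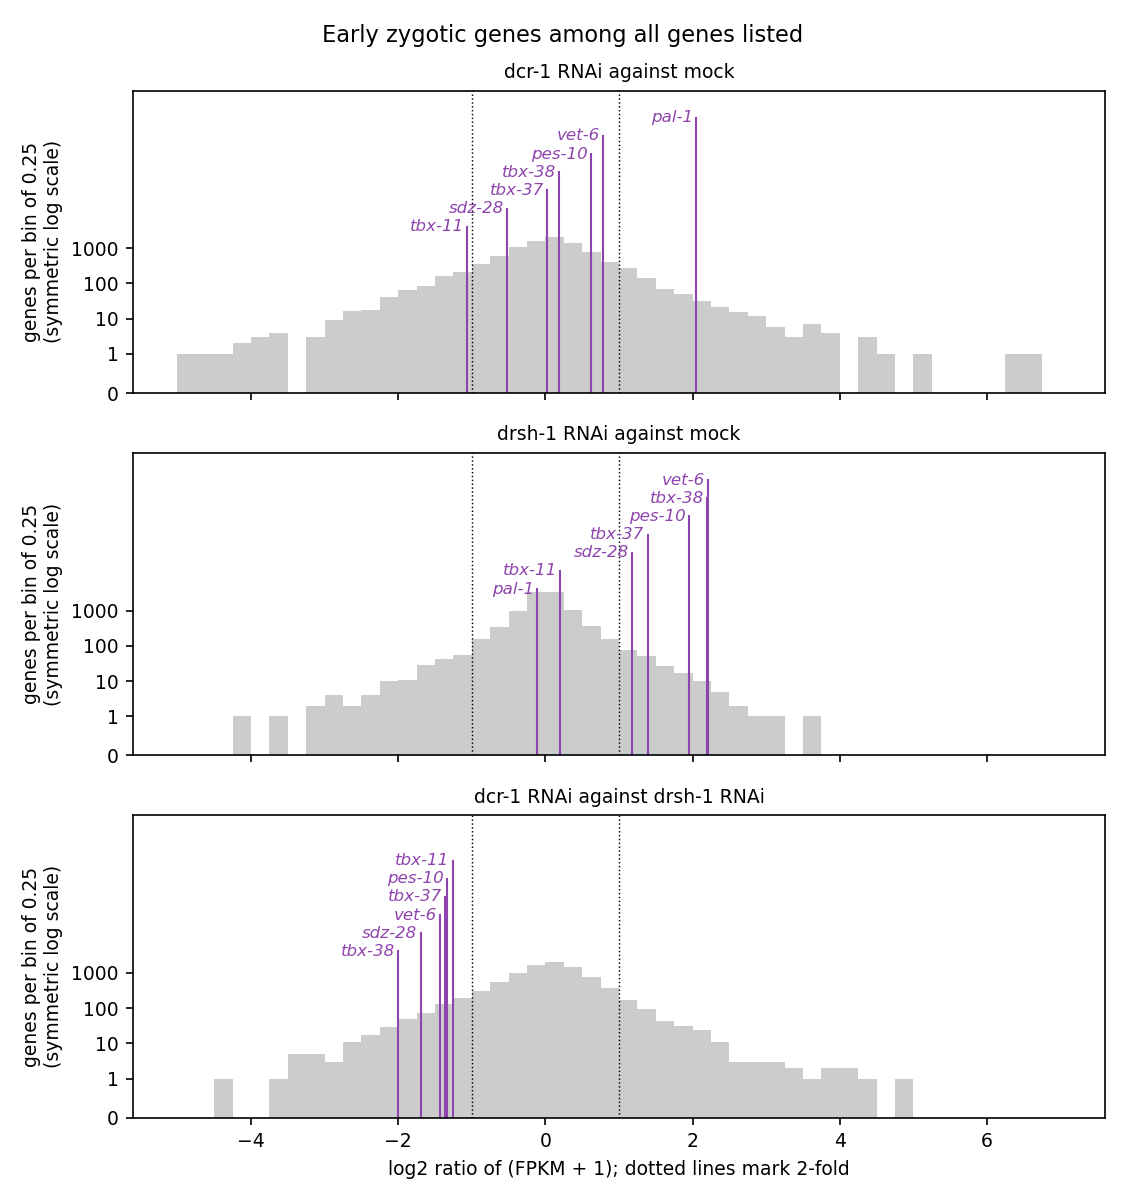
Number of genes per bin of 0.25 (symmetric log scale) by log2 ratio of (FPKM + 1) in 3 panels (dcr-1 RNAi over mock, drsh-1 RNAi over mock, and dcr-1 RNAi over drsh-1 RNAi), with lines at the named genes. The genes spread on both sides of 0 in the first panel (tbx-37 changes sign with each scaling tried and tbx-38 with the same summed FPKM), 5 of 7 lie past 2-fold on the higher side in the second, and all 6 lie past 2-fold on the lower side in the third (3 of 6 with a pseudocount of 5 FPKM).

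The levels of the 6 genes with equal mock values spanned 2.52 to 13.9 FPKM in dcr-1 RNAi, 8.05 to 47.3 FPKM in drsh-1 RNAi and 2.38 to 20.5 FPKM in mock. In FPKM, which is per length, the order from the highest in drsh-1 RNAi was sdz-28, vet-6, tbx-11, tbx-38, pes-10 and tbx-37, with tbx-38 and pes-10 almost level. In mock the order was sdz-28, tbx-11, vet-6, pes-10, tbx-37 and tbx-38. With 1 library each, no spread is known for neighbours in these orders. tbx-38 was thus the lowest of the 6 in mock and the fourth in drsh-1 RNAi. Of all genes, 1.89% were lower than tbx-38 in mock and 36.2% lower in drsh-1 RNAi, both in the drsh-1 table. A gene below 2 FPKM in either library of a table is missing from it, and tbx-38, tbx-37 and pes-10 were close to that limit in mock.

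Other genes of the early classes were taken whole by name, with earlier results of these data known. Of the sdz class, zygotic transcripts that depend on SKN-1, 37 further names were looked up, and 14 were in the drsh-1 table and 10 in the dcr-1 table. All 14 were higher in drsh-1 RNAi than in mock, and 6 reached 2-fold, beside 1.91% of all genes. Their log2 ratios ran from 0.08 to 1.86. The other 23 names were in neither table. No listed value was below 2 FPKM, so a low gene that fell in drsh-1 RNAi may be missing. Nothing is thus read from the counts of this class. The median log2 ratio of the 14 was 0.90. The share of all genes above mock was 50.4%. sdz-7 was at 7.31 FPKM in dcr-1 RNAi, 13.96 FPKM in drsh-1 RNAi and 3.11 FPKM in mock (log2 ratios to mock 1.01 and 1.86). sdz-9 was at 3.68 FPKM in dcr-1 RNAi, 15.9 FPKM in drsh-1 RNAi and 4.08 FPKM in mock (-0.12 and 1.73). The drsh-1 library was thus the highest for both, as for sdz-28.

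In dcr-1 RNAi the sdz class was split, with 4 of 10 above mock, where 55.5% of all genes were, 6 below and a median of -0.29. Past 2-fold were 2 higher and 1 lower gene, beside 6.71% and 6.53% of all genes. Of the 10 genes, 9 were higher in drsh-1 RNAi than in dcr-1 RNAi, where 44.5% of the 9043 genes with equal mock values were. The exception, sdz-6, was named after its values were seen, and was at 39.5 FPKM in dcr-1 RNAi, 9.60 FPKM in drsh-1 RNAi and 4.16 FPKM in mock. A further 4 sdz genes, sdz-8, sdz-10, sdz-33 and sdz-36, were listed in the drsh-1 table alone. They have no value in the dcr-1 table, and the reason for this is not known.

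Of the vet class 5 names besides vet-6 were looked up, and 2 were listed. vet-1 was at 19.6 FPKM in dcr-1 RNAi, 46.9 FPKM in drsh-1 RNAi and 12.8 FPKM in mock, with a log2 ratio to mock of 0.58 under dcr-1 RNAi and of 1.80 under drsh-1 RNAi. vet-2 was at 16.6 FPKM in dcr-1 RNAi, 32.7 FPKM in drsh-1 RNAi and 11.5 FPKM in mock, with 0.50 under dcr-1 RNAi and 1.43 under drsh-1 RNAi. Both had the order of libraries seen for vet-6.

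**Figure D4:**
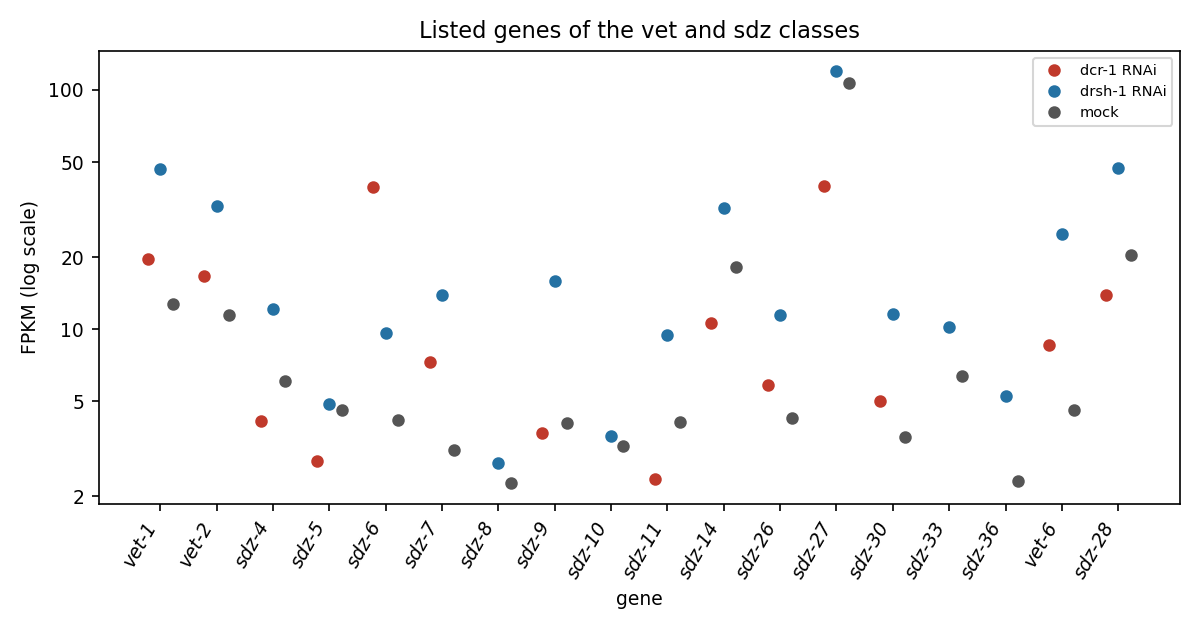
FPKM (log scale) of the listed genes of the vet and sdz classes in dcr-1 RNAi, drsh-1 RNAi and mock, with 1 point per library and no point where a gene was missing from the dcr-1 table. The drsh-1 point is above the mock point for every gene shown, but a low gene that fell in drsh-1 RNAi may not be listed. sdz-6, at 39.5 FPKM in dcr-1 RNAi, is the gene whose dcr-1 point lies above its other 2 points.

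Other embryonic regulators lay on both sides of mock. Of 39 other names on the early zygotic list, 17 were in the drsh-1 table, with a median log2 ratio of 0.02. In drsh-1 RNAi 0 of the 17 were higher than mock by 2-fold or more and 2 were lower by that size. Over all genes 1.91% were higher and 1.59% lower by that size. The 2 lower genes were zip-7, a bZIP gene, at 4.07 FPKM in dcr-1 RNAi, 5.48 FPKM in drsh-1 RNAi and 17.7 FPKM in mock, and lin-26, a zinc finger gene of epidermal fate, at 22.1, 8.90 and 24.8 FPKM in the same libraries. Whether these genes differ from the vet and sdz classes was not tested. The endoderm regulators med-1, med-2, end-1 and end-3, which SKN-1 switches on in the embryo, were in neither table.

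Of 20 other T-box genes 7 were listed, with a median log2 ratio of -0.29 under dcr-1 RNAi and 0.30 under drsh-1 RNAi. tbx-2, tbx-8 and tbx-9 are among these and also on the early zygotic list above. Of the 7, only tbx-33 was at least 2-fold higher in drsh-1 RNAi, beside 1.91% of all genes. tbx-33 was at 6.62 FPKM in dcr-1 RNAi, 9.70 FPKM in drsh-1 RNAi and 3.98 FPKM in mock. tbx-43, chosen after its values were seen, had the order of tbx-11, at 6.39 FPKM in dcr-1 RNAi, 27.4 FPKM in drsh-1 RNAi and 14.8 FPKM in mock. Reported targets of PAL-1 had a median of 0.02 over 9 genes in drsh-1 RNAi, in a range of -1.38 to 0.30. All 9 were also among the 17 genes of the early zygotic list above, so they are no separate evidence. Of the 9 PAL-1 targets 0 were higher by 2-fold or more, beside 1.91% of all genes. Only 1, lin-26, already counted above, was lower by that size, beside 1.59% of all genes. In dcr-1 RNAi the median of the PAL-1 targets was -0.29. There 0 of 9 were past 2-fold in either direction, beside 6.71% of all genes higher and 6.53% lower.

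Maternal regulators of the early embryo were all listed, 36 of 36. In drsh-1 RNAi 0 of the 36 were past 2-fold, beside 1.91% of all genes higher and 1.59% lower, and the median log2 ratio of the 36 was 0.05. In dcr-1 RNAi 5 of the 36 were at least 2-fold lower and 0 higher by that size, beside 6.53% and 6.71% of all genes. The median of the 36 there was -0.32. skn-1 was at 93.3 FPKM in dcr-1 RNAi, 148 FPKM in drsh-1 RNAi and 130 FPKM in mock. mex-3, whose protein represses pal-1 mRNA, was at 211 FPKM in dcr-1 RNAi, 365 FPKM in drsh-1 RNAi and 330 FPKM in mock. pop-1 was at 17.6 FPKM in dcr-1 RNAi, 46.98 FPKM in drsh-1 RNAi and 65.8 FPKM in mock. These 3 were chosen for their known roles after their values were seen.

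A list of genes of later embryonic morphogenesis was looked up as well. This list was chosen with earlier results of these data known, so nothing is read from its counts. In drsh-1 RNAi 17 of 18 listed genes were lower than mock, where 49.6% of all genes were, and 8 reached 2-fold, where 1.59% of all genes did. The median log2 ratio was -0.54, in a range of -2.89 to 0.16. The lowest were the collagen gene dpy-14, at 60.8 FPKM in dcr-1 RNAi, 7.30 FPKM in drsh-1 RNAi and 60.4 FPKM in mock, the homeobox gene ceh-16 (-2.25) and the collagen gene sqt-3 (-2.25). In dcr-1 RNAi 13 of 20 were below mock, where 44.5% of all genes were, with 4 at least 2-fold lower (6.53% of all genes) and a median of -0.23. The summed level of the 16 with equal mock values was 507 FPKM in dcr-1 RNAi, 439 FPKM in drsh-1 RNAi and 672 FPKM in mock. Over the 8 listed sperm genes with equal mock values the sum was 72.2 FPKM in dcr-1 RNAi, 73.6 FPKM in drsh-1 RNAi and 76.6 FPKM in mock. spe-39 held much of this sum, and the other 7 genes summed to 42.3 FPKM in dcr-1 RNAi, 22.5 FPKM in drsh-1 RNAi and 28.03 FPKM in mock. In dcr-1 RNAi 7 of 9 listed sperm genes were above mock, where 55.5% of all genes were, with a median log2 ratio of 0.53. These 9 are the few of 58 names that were listed. The 5 listed major sperm protein genes lay between 2.16 and 8.03 FPKM, close to the 2 FPKM limit. The 4 of them with equal mock values summed to 23.2 FPKM in dcr-1 RNAi, 11.2 FPKM in drsh-1 RNAi and 12.4 FPKM in mock. The part of embryos, oocytes or sperm in the levels of the early zygotic genes was not tested.

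**Figure D5:**
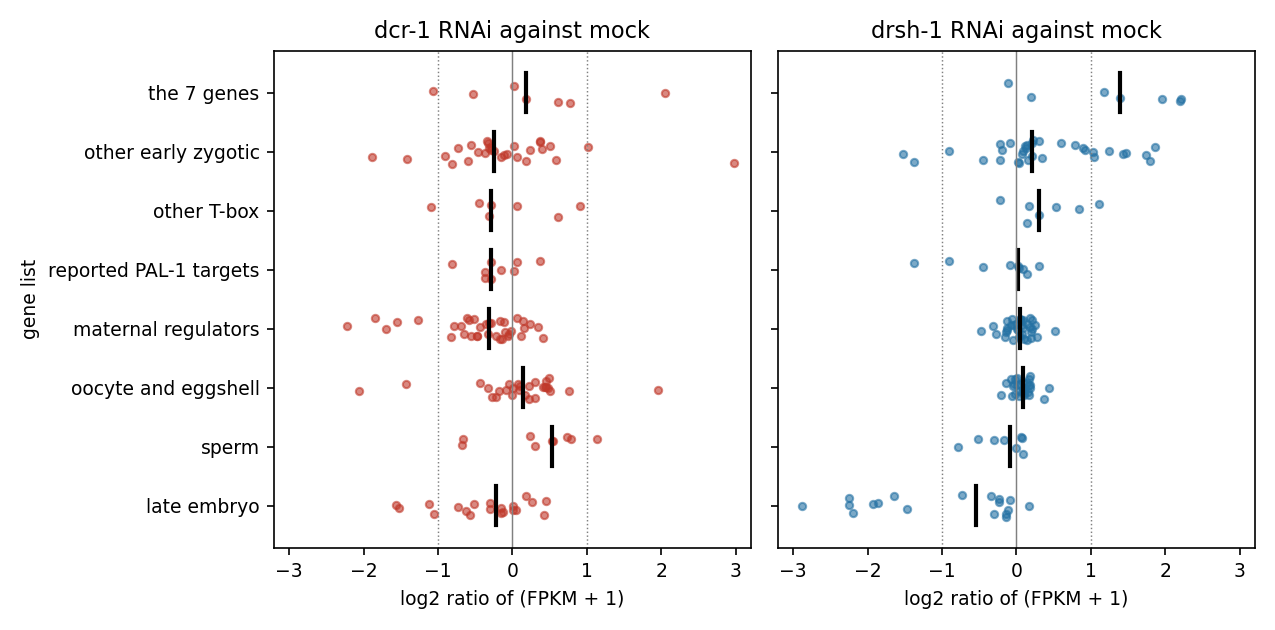
Log2 ratio of (FPKM + 1) to mock in dcr-1 RNAi (left) and drsh-1 RNAi (right) for the listed genes of each gene list, with 1 point per gene, a black bar at the median and dotted lines at 2-fold. Some genes are on more than 1 list. In drsh-1 RNAi the median is 1.39 for the 7 genes, 0.20 for the other early zygotic genes and -0.54 for the late embryo genes, and in dcr-1 RNAi the median of the 7 genes, 0.19, is -0.025 with the same summed FPKM.

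The genes most like the 6 members with equal mock values were sought by the distance between pairs of log2 ratios to mock, over 9043 genes and 3 libraries. The median pair of the members was 0.11 for dcr-1 RNAi and 1.67 for drsh-1 RNAi. The 5 nearest other genes were fbxb-92 (distance 0.108), EEED8.4 (0.113), fbxb-84 (0.129), F56A8.8 (0.210) and fbxb-103 (0.211), of which the fbxb genes encode F-box proteins. fbxb-92 was at 3.78 FPKM in dcr-1 RNAi, 13.8 FPKM in drsh-1 RNAi and 3.77 FPKM in mock, an order of libraries that the search itself fixed. Of the members, tbx-37 was the nearest to the median pair (0.294) and tbx-11 the farthest (1.88), which ranked 6342 of all 9043 genes by that distance.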

How the data were processed

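PolyA RNA of 3 libraries was analysed from 2 tables without headers. Per the labels' protocols RNA was extracted with TRIzol for TruSeq libraries. TopHat2 2.06, Cufflinks, Cuffdiff 2.1.1, SAMtools and CASAVA 1.8.2 are named, without roles, per the submitters' processing notes. Genome build, annotation, strand use and scaling between libraries are not given in the sources used here. Positions are therefore left out, and annotation facts come from WBcel235 (Ensembl release 115, RefSeq). The authors deposited FPKM values for mock and for 1 RNAi library per table. The last column, the authors' log2 ratio, was recomputed from both FPKM columns with 1 FPKM added to each, and differed by at most 5.0e-12. Mock was taken as the shared column and denominator, and the RNAi library from the table's name. All listed values exceed 2 FPKM.

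Log2 ratios with a pseudocount of 1 FPKM were computed for 3 comparisons with Python 3.11.15, pandas 2.3.3 and numpy 2.4.6. They understate changes of low genes. The code was run on simulated data without noise and without a pseudocount, which checks the formula alone. At least 2-fold is a size, not a test. Mock values within 1e-09 count as equal. Alternatives were other pseudocounts (0.1 and 5 FPKM), 3 scalings, a mean of at least 5 FPKM and other mock values. List genes were matched by symbol or RefSeq sequence name. Members and lists were chosen with earlier results of these data known. Named genes were the members, dcr-1 and drsh-1, up to 3 genes per list and direction at least 2-fold from mock in drsh-1 RNAi, and the 5 nearest genes. Every other gene named, such as further class members, markers and neighbouring or overlapping genes, was chosen after its values were seen.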

Additional observations from a re-analysis of the deposited data

How the results depend on the processing

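A pseudocount of 5 FPKM left 0 members at least 2-fold lower in dcr-1 RNAi than in mock and 3 at least 2-fold lower in dcr-1 RNAi than in drsh-1 RNAi. It took tbx-37 in drsh-1 RNAi under 2-fold (log2 ratio 0.81) and gave, over all genes, 409 higher and 407 lower in dcr-1 RNAi (646 and 629 with 1 FPKM), 99 and 89 in drsh-1 RNAi (191 and 159) and 250 and 316 between the RNAi libraries (388 and 523). In dcr-1 RNAi against mock, the members' median was -0.025 with the same summed FPKM, where tbx-38 had -0.025 and tbx-37 -0.18. The ratio of tbx-37 was -0.021 when centred on the median ratio and -0.025 with a common upper quartile. Members at least 2-fold higher in dcr-1 RNAi numbered 0 with equal mock values only, and 0 with the mock values of the drsh-1 table, where pal-1 had -0.095. The latter alternative was chosen after seeing the data and mixes values of 2 tables. Over all genes the same summed FPKM gave 350 higher and 1000 lower in dcr-1 RNAi, and 249 higher between the RNAi libraries. The cause of these changes was not tested beyond the construction of each alternative. The median in drsh-1 RNAi stayed between 1.04 and 1.67, and between the RNAi libraries between -1.58 and -1.04, under every alternative run. No paired analysis was possible because each group had 1 library. Read depth is unknown, so no counting error or detection limit is given.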

Other observations

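Genes next to the members in WBcel235 were mostly absent from the tables, with 5 of 14 neighbouring protein-coding genes listed. Y47D3A.13, which lies beside tbx-37 on the same strand, was at 7.44 FPKM in dcr-1 RNAi, 18.3 FPKM in drsh-1 RNAi and 5.37 FPKM in mock, with log2 ratios to mock of 0.41 under dcr-1 RNAi and 1.60 under drsh-1 RNAi. In the values as deposited it thus had the library order of tbx-37, tbx-38, vet-6 and pes-10. The other 4 listed neighbours were within 2-fold of mock in both RNAi libraries. Y47D3A.13 was singled out after its values were seen.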
